A study of Mus musculus with 18 samples.

Results

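The circadian clock genes described here are Arntl, Npas2, Clock, Nr1d1, Dbp, Nr1d2, Per3, Per1, Per2 and Cry1. These 10 genes, of 22298 in the count tables, were chosen by name and found by matching Ensembl identifiers to GENCODE M21 symbols. RNA-seq had been run on 2 white fat depots, the epididymal (eWAT) and the inguinal one (iWAT), and on liver of C57BL/6 mice aged 12 weeks, with 3 libraries for each tissue and genotype and 18 in all. The animals called KO were Bckdha f/f;RIP-Cre, and the animals called WT were Bckdha f/f without Cre. Both genotypes thus shared the floxed Bckdha gene, which encodes a subunit of the branched-chain ketoacid dehydrogenase. The name RIP-Cre usually stands for Cre driven by an insulin promoter of the rat, whose activity lies in beta cells of the pancreas and in certain neurons, not in fat cells or hepatocytes. Without a group that had only RIP-Cre, effects of the transgene and of the deletion cannot be told apart. Sex, feeding state and the time of day of collection are not given in the labels. Nor do the labels say whether libraries of the same number in different tissues came from the same animal. They also do not say that libraries of 1 group were from different animals, so the p-values measure only how far these libraries differ from each other, which may be technical.

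The molecular clock is a feedback loop of transcription factors that runs in nearly every cell and gives many genes a daily rhythm. Arntl (also called Bmal1) pairs with Clock or its relative Npas2 and drives transcription of the Per, Cry, Nr1d1, Nr1d2 and Dbp genes. The Per and Cry proteins then block that pair, and the Nr1d1 and Nr1d2 proteins (REV-ERB alpha and beta) repress Arntl. In mouse liver the transcripts follow each other through the day. Arntl, Npas2 and Clock are highest around the end of the night, then Nr1d1, Dbp, Nr1d2 and Per3, then Per1 and Per2 towards evening, and Cry1 in the night. In such a snapshot a difference in the size of a rhythm and one in its timing cannot be told apart.

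The promoters of Arntl, Nr1d1 and Per1 are shown because Nr1d1 and Per1 are set against Arntl below, and because the windows printed carry 4 short motifs of the loop. They are RefSeq windows on GRCm38.p6, 5′ to 3′ on the strand of the gene. Each is 300 bases long, with 250 bases before the annotated start and 50 after it, and capitals mark the motif letters. The second of 2 windows of Arntl (chr7:113207261-113207560, + strand) holds TAGGTCA, the core of the element that Nr1d1 and Nr1d2 bind. Its first base is at position 30 from the start. The window of Nr1d1 (chr11:98775328-98775627, - strand) holds the variant E-box CACGTT at position -28, seen here from the opposite strand as AACGTG. The first of 2 windows of Per1 (chr11:69098699-69098998, + strand) holds the E-box CACGTG, bound by Arntl with Clock or Npas2, at position -166. It also holds the D-box TTATGNAA, bound by Dbp and its relatives, at position -24.
Arntl: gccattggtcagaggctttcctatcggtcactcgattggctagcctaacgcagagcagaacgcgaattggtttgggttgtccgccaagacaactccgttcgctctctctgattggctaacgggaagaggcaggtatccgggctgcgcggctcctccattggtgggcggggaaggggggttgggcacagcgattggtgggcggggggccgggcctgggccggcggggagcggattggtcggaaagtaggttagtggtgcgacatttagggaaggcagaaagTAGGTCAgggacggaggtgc
Nr1d1: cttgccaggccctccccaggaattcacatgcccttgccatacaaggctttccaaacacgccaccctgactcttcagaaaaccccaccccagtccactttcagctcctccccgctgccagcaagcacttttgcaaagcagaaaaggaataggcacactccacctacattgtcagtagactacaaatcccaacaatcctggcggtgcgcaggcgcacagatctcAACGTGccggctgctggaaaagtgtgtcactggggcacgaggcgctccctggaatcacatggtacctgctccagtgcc
Per1: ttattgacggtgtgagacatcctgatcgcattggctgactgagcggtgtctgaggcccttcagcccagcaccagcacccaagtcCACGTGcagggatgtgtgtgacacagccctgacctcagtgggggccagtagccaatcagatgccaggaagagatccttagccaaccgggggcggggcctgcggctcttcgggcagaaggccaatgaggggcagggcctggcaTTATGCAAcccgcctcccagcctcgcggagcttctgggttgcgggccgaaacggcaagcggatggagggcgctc
A window was found for 9 of the 10 genes, all but Per2, with 13 windows in all because several genes have more than 1 start. Each motif was searched on both strands. The other window of Arntl (chr7:113207215-113207514) and that of Per1 (chr11:69099902-69100201) held none of the 4. The E-box was found in 2 of these genes (Per1 and Cry1) and the variant E-box in 2 (Nr1d1 and Cry1). The D-box was found in 2 (Per3 and Per1) and the core of the REV-ERB element in 1 (Arntl). Over all 32817 windows of the table, 7.15% held the E-box, 4.69% the variant E-box, 3.39% the D-box and 2.61% the core of the REV-ERB element. These shares are per window, while the counts before them are per gene. By window, 2 of the 13 held the E-box. A match describes letters in the window and not a bound site.

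The libraries held between 16796147 and 28039742 expected counts in all. Levels are given as CPM, counts scaled to the size of the library times a factor for its composition (TMM scaling over all 18 libraries). A CPM value is therefore not a plain share of the counts. In liver WT replicate 1, for example, Alb held 7.24% of the counts and was at 136000 CPM. In liver the 7 hepatocyte markers summed to 188000 to 215000 CPM in KO and 196000 to 243000 CPM in WT. In iWAT the 7 adipocyte markers summed to 5620 to 12500 CPM in KO and 3680 to 11100 CPM in WT, and the 5 B cell markers to 300 to 1020 CPM in KO and 5.16 to 1090 CPM in WT. In eWAT 1 library went against its label: WT replicate 2 had adipocyte markers at only 98.6 CPM and 7 markers of the caput epididymis at 44600 CPM. KO replicates 1 and 3 of eWAT also held such transcripts (1100 and 1260 CPM), against 33.2 CPM or less in the other 3 eWAT libraries, and spermatid markers reached 479 CPM in KO replicate 1. KO minus WT values of the clock genes in eWAT are therefore also given without WT replicate 2. For some they are also given in the 3 libraries with few epididymal transcripts (KO replicate 2, WT replicates 1 and 3). That last fit assumes that the lone KO library varies like the WT ones. Values of the other gene lists in eWAT include WT replicate 2. Bckdha, the targeted gene, overlapped between the genotypes in every tissue, for example at 330 to 465 CPM in KO livers and 374 to 445 CPM in WT livers. In bulk tissue, fewer cells of a type and less RNA per cell cannot be told apart.

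Compared between KO and WT, no clock gene passed the test in any tissue (edgeR quasi-likelihood test, Benjamini-Hochberg adjusted p under 0.05 over all genes tested). The count was 0 of 10 clock genes in eWAT, where 0% of 14657 genes passed, and 0 of 10 in iWAT, where 0% of 14226 genes passed. It was 0 of 9 in liver, where 0.0504% of 11915 genes passed and Npas2 was below the filter on low counts. At an unadjusted p under 0.05 the count was 1 in eWAT (5.75% of all genes), 0 in iWAT (4.17%) and 2 in liver (6.04%). DESeq2, limma-voom and limma on FPKM values also called 0 clock genes in each tissue.

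Genes were also counted whose 3 KO libraries all lay above, or all below, the 3 WT libraries. In eWAT 2 clock genes were higher in every KO library (9.01% of all genes) and 0 were lower (7.1%). In iWAT 1 was higher (3.65%) and 1 lower (5.7%). In liver 0 were higher (5.14%) and 2 lower (7.91%). The median log2 fold change of the clock genes was 0.34 in eWAT, 0.09 in iWAT and 0.15 in liver. Over all genes tested it was −0.02, 0.01 and −0.0021. Without eWAT WT replicate 2 the median over all genes in eWAT was 0.16. Arntl (−0.55), Cry1 (−0.37), Clock (−0.17), Per2 (0.04) and Nr1d2 (0.07) then lay below it, and Per3 was also at 0.16. Above it lay Dbp (0.4), Per1 (0.69), Nr1d1 (1.01) and Npas2 (1.64).

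**Figure D1:**
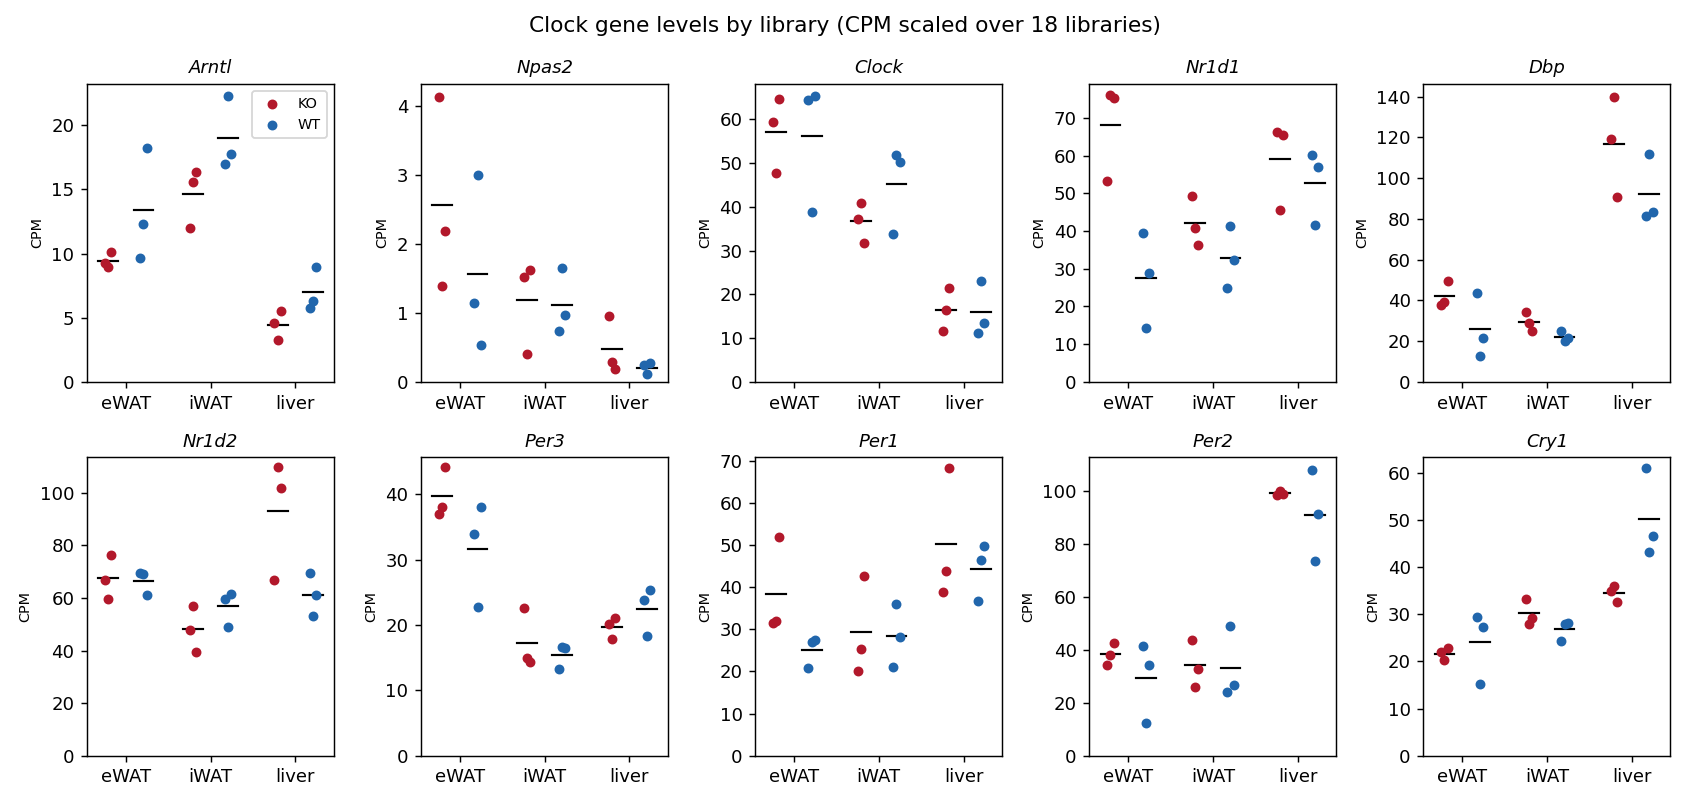
CPM of each clock gene in each library, on an axis from 0 for each gene, for KO (red, left) and WT (blue, right) libraries of eWAT, iWAT and liver; black bars are means of 3 libraries. KO and WT points of Arntl do not overlap in iWAT and liver, and those of Nr1d1 and Per1 do not overlap in eWAT.

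Arntl (ENSMUSG00000055116, chr7:113207465-113314126, + strand, by GENCODE M21 on GRCm38 as for the other genes) is the partner without which the loop does not run. It was at 4.56, 3.27 and 5.55 CPM in the KO livers and at 5.79, 6.28 and 8.94 CPM in the WT livers. All 3 KO livers lay below all 3 WT livers, on 46 to 60 counts in KO and 58 to 99 counts in WT. Its log2 fold change of −0.63 ± 0.3 (SE) did not pass the test (adjusted p = 0.831). In iWAT Arntl was at 12, 15.6 and 16.4 CPM in KO and 17, 22.3 and 17.8 CPM in WT. The groups were again apart, the highest KO library lying close under the lowest WT library, with a log2 fold change of −0.37 ± 0.19 (adjusted p = 1). In eWAT it was at 9.28, 8.99 and 10.1 CPM in KO and 9.63, 12.3 and 18.2 CPM in WT. These groups overlapped, since WT replicate 1 lay among the KO libraries. The log2 fold change was −0.52 ± 0.3 (adjusted p = 0.706), −0.55 without WT replicate 2 and −0.63 in the 3 libraries with few epididymal transcripts. It was −0.19 without WT replicate 3, the highest library. On FPKM values with a pseudocount of 1 it was −0.28 in liver, −0.23 in iWAT and −0.13 in eWAT. On that scale, with a minimum mean of 1 FPKM, the medians over all genes were 0.09, 0.12 and 0.31. Arntl in liver averaged 0.857 FPKM in KO and 1.25 FPKM in WT, where a pseudocount of 1 shrinks a difference.

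Npas2 (ENSMUSG00000026077, chr1:39193731-39363236, + strand), which can stand in for Clock as the partner of Arntl, was a rare transcript. It was at 1.39 to 4.13 CPM in KO and 0.534 to 3 CPM in WT in eWAT, and at 0.406 to 1.63 CPM in KO and 0.742 to 1.65 CPM in WT in iWAT. In liver it had 2 to 10 counts per library in KO and 1 to 3 counts in WT. The groups overlapped in each tissue, with log2 fold changes of 0.67 ± 0.8 in eWAT and 0.11 ± 0.64 in iWAT (adjusted p = 0.813 and 1). In eWAT the overlap came from WT replicate 2 at 3 CPM, the other WT libraries being at 1.15 and 0.534 CPM. The eWAT value was 1.64 without WT replicate 2 (adjusted p = 0.333) and 0.2 without KO replicate 1, the highest library.

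Clock (ENSMUSG00000029238, chr5:76209868-76304792, - strand), the usual partner of Arntl, was at 47.7 to 64.5 CPM in KO and 38.9 to 65.4 CPM in WT in eWAT. It was at 31.8 to 40.8 CPM in KO and 33.7 to 51.9 CPM in WT in iWAT, and at 11.6 to 21.4 CPM in KO and 11.1 to 23 CPM in WT in liver. The genotypes overlapped in all 3 tissues. The log2 fold changes were 0.0017 ± 0.27 in eWAT, −0.29 ± 0.23 in iWAT and 0.08 ± 0.33 in liver, and the sign in eWAT and in liver changed with single libraries.

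Nr1d1 (ENSMUSG00000020889, chr11:98767932-98775333, - strand) encodes the repressor of Arntl that peaks first after it. In eWAT it was at 53.2, 76 and 75.3 CPM in KO and at 39.5, 14.3 and 29 CPM in WT. Every KO library lay above every WT library, the lowest value being that of WT replicate 2. Its log2 fold change was 1.29 ± 0.41, the largest in size among the genotype values of the 10 genes in the 3 tissues, with an unadjusted p of 0.0205 and an adjusted p of 0.706. It was 1.01 without WT replicate 2 and 1.16 in the 3 libraries with few epididymal transcripts, and the adjusted p ranged from 0.143 to 0.997 over the alternatives run.

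In iWAT Nr1d1 was at 49.3, 40.9 and 36.3 CPM in KO and 25, 41.3 and 32.4 CPM in WT. The groups overlapped, with a log2 fold change of 0.38 ± 0.26 (adjusted p = 1). In liver it was at 66.2, 45.6 and 65.5 CPM in KO and 60.1, 41.5 and 56.9 CPM in WT. These overlapped too, with a log2 fold change of 0.19 ± 0.21 (adjusted p = 0.899). Nr1d1 overlaps Thra, a thyroid hormone receptor gene on the opposite strand. The labels do not say whether the library kit marked the strand, so reads of the shared stretch cannot be told apart. Thra was at 54.2 to 72.2 CPM in KO and 27.5 to 57.6 CPM in WT in eWAT.

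Dbp (ENSMUSG00000059824, chr7:45705088-45710203, + strand) encodes a transcription factor that carries the rhythm to output genes. In iWAT it was at 34.5, 28.9 and 25 CPM in KO and at 24.9, 20 and 21.5 CPM in WT. The groups did not overlap, although KO replicate 3 and WT replicate 1 almost met, and the log2 fold change was 0.44 ± 0.2 (adjusted p = 1). In liver Dbp was at 119, 140 and 90.7 CPM in KO and 81.2, 112 and 83.2 CPM in WT. WT replicate 2 lay among the KO livers, and the log2 fold change was 0.36 ± 0.21 (adjusted p = 0.836). In eWAT Dbp was at 37.8, 39.3 and 49.7 CPM in KO and 43.6, 12.7 and 21.4 CPM in WT. WT replicate 1 lay among the KO libraries there. The log2 fold change of 0.69 ± 0.47 (adjusted p = 0.717) was 1.28 without WT replicate 1, 0.4 without WT replicate 2 and 0.28 in the 3 libraries with few epididymal transcripts. Dbp overlaps Sphk2, a lipid kinase gene, on the opposite strand, and Sphk2 was at 32.9 to 48.9 CPM in KO and 28.6 to 47.1 CPM in WT in liver.

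Nr1d2 (ENSMUSG00000021775, chr14:18204054-18239127, - strand) encodes the other REV-ERB repressor of Arntl. It was at 66.9, 110 and 102 CPM in the KO livers and at 69.7, 53.1 and 61.1 CPM in the WT livers. KO replicates 2 and 3 stood above every WT liver and KO replicate 1 stood among them. The log2 fold change of 0.63 ± 0.22 had an unadjusted p of 0.0187 and an adjusted p of 0.665, and it lay between 0.49 and 0.84 as single livers were left out. In eWAT Nr1d2 was at 59.8 to 76.4 CPM in KO and 61.1 to 69.5 CPM in WT. In iWAT it was at 39.6 to 57.1 CPM in KO and 49 to 61.7 CPM in WT. Both pairs of groups overlapped, with log2 fold changes of −0.00027 ± 0.2 in eWAT and −0.22 ± 0.2 in iWAT.

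Per3 (ENSMUSG00000028957, chr4:151003652-151044665, - strand) belongs to the family of Per repressors. It was at 37 to 44.1 CPM in KO and 22.8 to 38 CPM in WT in eWAT, and at 14.3 to 22.6 CPM in KO and 13.2 to 16.6 CPM in WT in iWAT. In liver Per3 was at 17.9 to 21 CPM in KO and 18.3 to 25.3 CPM in WT. Its groups overlapped in every tissue. The log2 fold changes were 0.31 ± 0.25 in eWAT (0.16 without WT replicate 2), 0.2 ± 0.27 in iWAT and −0.17 ± 0.19 in liver. Per3 overlaps Camta1 on the same strand, and Camta1 was at 2.56 to 7.66 CPM in KO and 5.17 to 9.41 CPM in WT in eWAT.

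Per1 (ENSMUSG00000020893, chr11:69095217-69109960, + strand) encodes a repressor that closes the loop with the Cry proteins, and it also responds directly to glucocorticoids. In eWAT it was at 31.5, 32 and 51.8 CPM in KO and at 20.7, 27 and 27.4 CPM in WT. All KO libraries lay above all WT libraries, with a log2 fold change of 0.6 ± 0.29 (adjusted p = 0.706). The value was 0.28 without KO replicate 3, the highest library, 0.69 without WT replicate 2 and 0.41 in the 3 libraries with few epididymal transcripts. In iWAT Per1 was at 20.2 to 42.6 CPM in KO and 21.1 to 36.1 CPM in WT, with a log2 fold change of 0.05 ± 0.32. In liver it was at 38.8 to 68.4 CPM in KO and 36.8 to 49.8 CPM in WT, with a log2 fold change of 0.21 ± 0.25. Both overlapped.

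Per2 (ENSMUSG00000055866, chr1:91415982-91459324, - strand), its close relative in that repression, was at 34.1 to 42.7 CPM in KO and 12.4 to 41.3 CPM in WT in eWAT. It was at 26 to 43.9 CPM in KO and 24 to 49 CPM in WT in iWAT, and at 98.6 to 100 CPM in KO and 73.7 to 108 CPM in WT in liver. The WT values enclosed the KO values in iWAT and liver and overlapped them in eWAT. The log2 fold changes were 0.37 ± 0.45 in eWAT (0.04 without WT replicate 2), 0.07 ± 0.36 in iWAT and 0.15 ± 0.17 in liver.

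Cry1 (ENSMUSG00000020038, chr10:85131700-85185064, - strand) is the latest of the 10 in the cycle and encodes a strong repressor of the Arntl and Clock pair. It was at 34.9, 36.1 and 32.5 CPM in the KO livers and at 61, 43.3 and 46.6 CPM in the WT livers. All KO livers lay below all WT livers. The log2 fold change of −0.52 ± 0.18 had an unadjusted p of 0.0189 and an adjusted p of 0.665, between 0.246 and 1 over the alternatives run. In eWAT Cry1 was at 20.3 to 22.8 CPM in KO and 15.3 to 29.4 CPM in WT, so the WT libraries enclosed the KO ones. In iWAT it was at 27.9 to 33.3 CPM in KO and 24.3 to 28.1 CPM in WT, which just overlapped. The log2 fold changes were −0.17 ± 0.29 in eWAT (−0.37 without WT replicate 2) and 0.19 ± 0.17 in iWAT, and the sign in eWAT was the opposite on FPKM values (0.2).

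**Figure D2:**
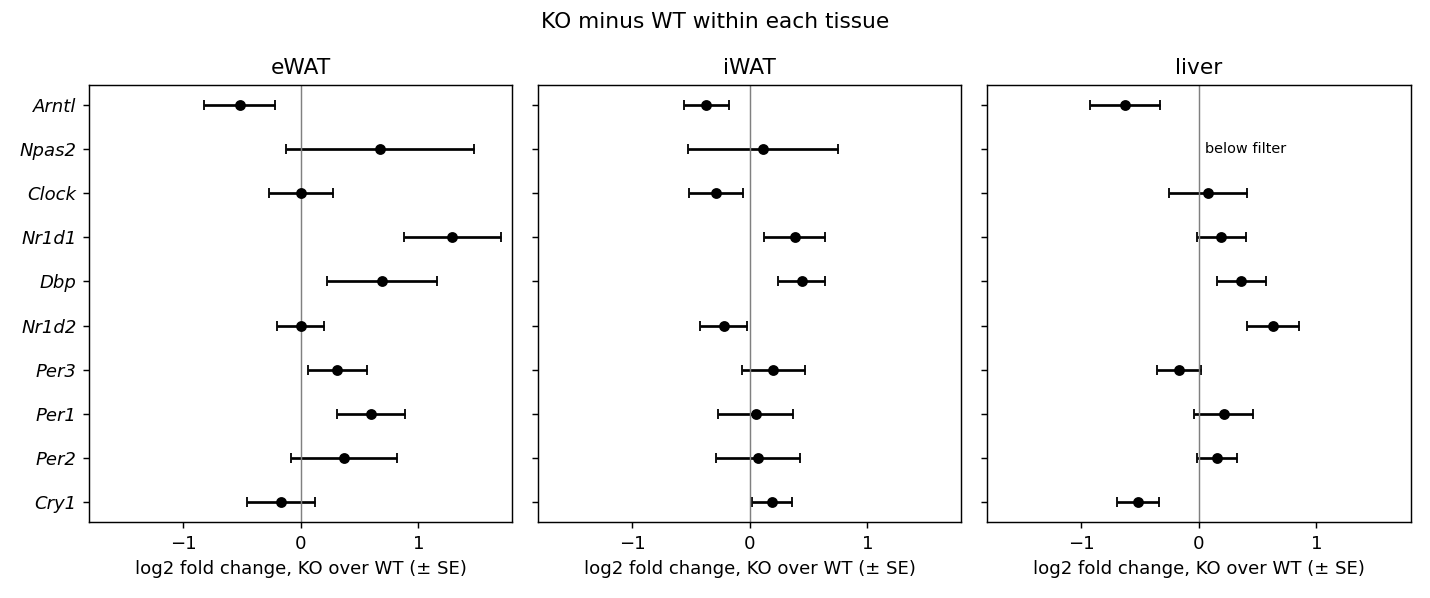
Log2 fold change of KO over WT with its SE (horizontal bars) for the 10 clock genes, in order of daily phase from top to bottom, in each tissue; Npas2 was below the filter in liver. Arntl lies left of 0 in the 3 tissues (−0.52, −0.37 and −0.63) and Nr1d1 (1.29, 0.38 and 0.19) and Dbp (0.69, 0.44 and 0.36) lie right of 0, with 0 clock genes past the threshold.

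The difference of the KO minus WT values between tissues was tested in 1 fit of all 18 libraries, in which comparisons that share a tissue also share its libraries. For iWAT minus eWAT, 0 of 10 clock genes and 0% of 15717 genes passed. At an unadjusted p under 0.05 there was 1 clock gene (5.82% of all genes), Nr1d1, with a difference of −0.95 ± 0.44 on the log2 scale (adjusted p = 0.85). For liver minus eWAT, 0 of 10 passed (0% of all genes), and Nr1d1 was again the 1 clock gene at an unadjusted p under 0.05 (6.36% of all genes), at −1.14 ± 0.44 (adjusted p = 0.773). For liver minus iWAT, 0 of 10 passed (0% of all genes), and 2 were at an unadjusted p under 0.05 (2.63% of all genes). These were Nr1d2, at 0.84 ± 0.29, and Cry1, at −0.71 ± 0.3 (adjusted p = 1 for both). DESeq2 called 0 clock genes in these 3 comparisons.

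The log2 fold change of Arntl was below 0, and those of Nr1d1 and Dbp above 0, in each tissue. A KO minus WT value shared by the 3 tissues was therefore fitted over the 18 libraries. This fit was added after these values had been seen, so it describes the same libraries and is no independent test. It also took all 18 libraries as separate. If tissues came from the same animal, its SEs and p-values may be too small. The shared log2 value was −0.51 ± 0.15 for Arntl (unadjusted p = 0.00352, adjusted p = 0.494). It was 0.61 ± 0.21 for Nr1d1 (unadjusted p = 0.0111) and 0.49 ± 0.19 for Dbp (unadjusted p = 0.0181), with an adjusted p of 0.6 for both. These were the 3 clock genes at an unadjusted p under 0.05, where 8.16% of all genes were. After adjustment 0 of 10 passed, against 0.0318% of 15717 genes. The adjusted p of Arntl ranged from 0.0688 to 0.944 over the alternatives, and its value from −0.61 to −0.21.

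A level relative to Arntl within the same library does not depend on how libraries are scaled to each other. In eWAT Nr1d1 stood above Arntl by 2.51 to 3.07 log2 units in KO and 0.21 to 2.03 in WT. In iWAT it did so by 1.15 to 2.04 in KO and 0.56 to 0.89 in WT, and in liver by 3.54 to 3.83 in KO and 2.66 to 3.36 in WT. Every KO library was above every WT library of its tissue. Per1 stood above Arntl by 1.75 to 2.35 in KO and 0.59 to 1.13 in WT in eWAT, and by 3.06 to 3.71 in KO and 2.47 to 2.87 in WT in liver. In iWAT it did so by 0.69 to 1.38 in KO and 0.31 to 0.69 in WT, where the groups touched to 2 decimals. Of the other genes, Per3 was apart in eWAT, Dbp and Cry1 in iWAT, and Nr1d2 in liver, each higher in KO.

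In eWAT 3 of 9 ratios were higher in every KO library, and so were 17% of the ratios of all genes tested. In iWAT 4 of 9 were (20.1% of all genes) and in liver 3 of 9 (26.6%). Lower in every KO library were 0 ratios, beside 0.607% of all genes in eWAT, 1.05% in iWAT and 0.0839% in liver. Being higher in the 3 tissues at once held for 2 of the 9 clock genes and for 2% of 11484 genes tested in each tissue. Per1 is counted here and in iWAT, although its iWAT groups touched at 0.69. The ratios share Arntl as their denominator, so they are not independent of each other or of the Arntl values.

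**Figure D3:**
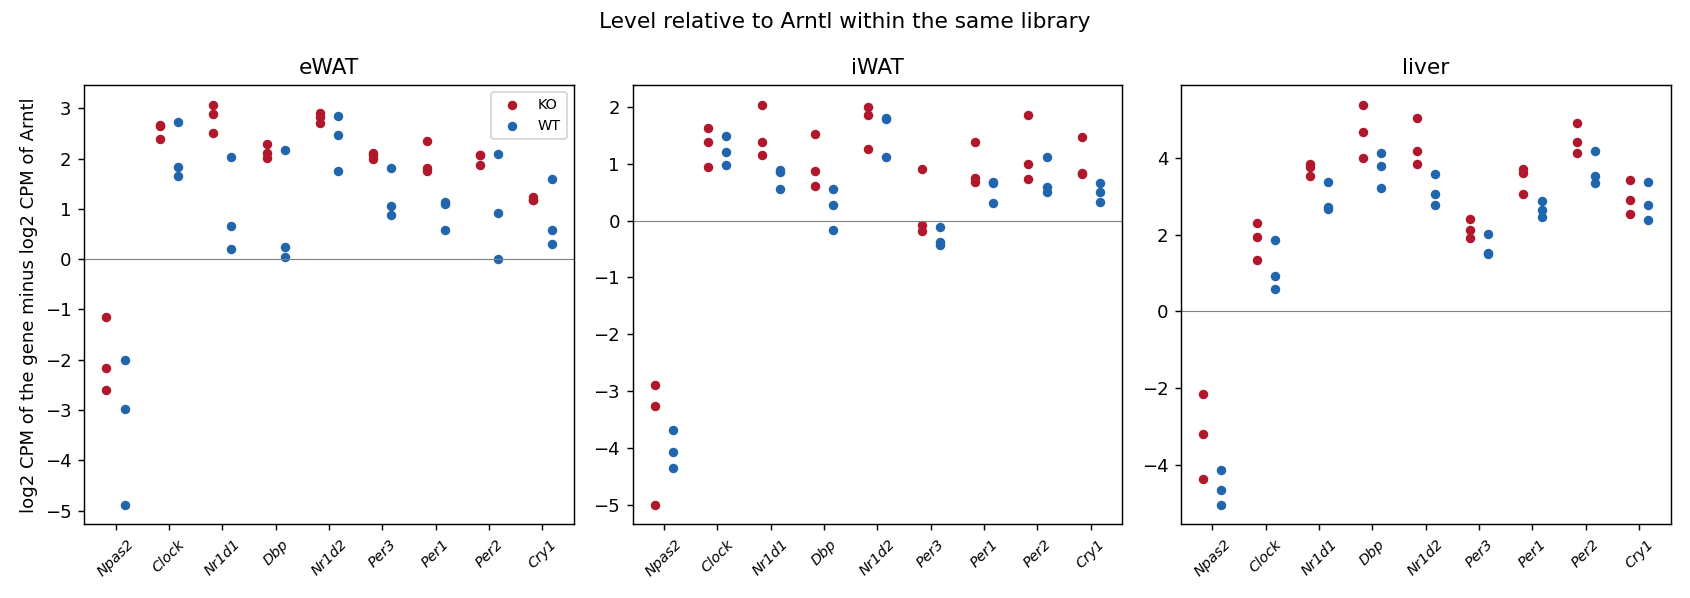
Log2 CPM of each clock gene minus log2 CPM of Arntl in the same library, for KO (red, left) and WT (blue, right) libraries; the grey line is equal CPM, and each tissue has its own vertical axis. The red points of Nr1d1 and Per1 lie above the blue ones in the 3 tissues, touching for Per1 in iWAT at 0.69, and Npas2 lies below the line.

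Levels of different genes were compared per length of transcript, as FPKM values averaged over the 6 libraries of a tissue (mean ± SD). Dbp had the highest mean of the 10 genes in each tissue, at 35.9 ± 8.14 FPKM in liver, 22.1 ± 5.77 FPKM in iWAT and 29.7 ± 13.6 FPKM in eWAT. Npas2 had the lowest, at 0.0667, 0.453 and 1.03 FPKM in liver, iWAT and eWAT. In liver Dbp was followed by Nr1d1 (11 ± 2.62), Nr1d2 (8.95 ± 3.19), Per2 (8.72 ± 1.54), Per1 (8.31 ± 4.51) and Cry1 (7.4 ± 1.8). None of these differed from the next beyond their spread. Per3 (1.89 ± 0.329), Clock (1.07 ± 0.297) and Arntl (1.05 ± 0.342) stood clear below them.

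In iWAT the order after Dbp was Nr1d1 (18.9 ± 4.5 FPKM), Nr1d2 (15.7 ± 2.95), Cry1 (12.9 ± 1.64), Per1 (10.9 ± 4.41), Arntl (7.94 ± 1.18), Per2 (7.83 ± 2.09), Clock (7.05 ± 1.1) and Per3 (3.77 ± 0.795). Neighbours overlapped within their SDs until Per3, which stood clear of Clock. In eWAT the order after Dbp was Nr1d1 (25.3 ± 15 FPKM), Nr1d2 (20.2 ± 4.18), Per1 (11.8 ± 4.53), Cry1 (10.4 ± 2.05), Clock (9.89 ± 2.51), Per3 (8.37 ± 2.33), Per2 (8.08 ± 3.01) and Arntl (5.38 ± 0.909). Each of these overlapped the next. By group means, Nr1d1 stood above Nr1d2 in fat in KO and below it in WT, in iWAT WT within their SDs. WT replicate 2 of iWAT had the KO order, with Nr1d1 at 18.4 FPKM and Nr1d2 at 13 FPKM. Nr1d1 averaged 38.3 ± 5.12 FPKM in KO and 12.3 ± 5.67 FPKM in WT in eWAT, and Nr1d2 averaged 22.4 ± 3.82 FPKM in KO and 18 ± 3.74 FPKM in WT (SD, n = 3). In iWAT Nr1d1 averaged 22.1 ± 3.35 FPKM in KO and 15.6 ± 2.82 FPKM in WT, and Nr1d2 averaged 14.9 ± 3.36 FPKM in KO and 16.4 ± 2.98 FPKM in WT.

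The liver stood apart from both fat depots, with Arntl and Clock lower and Dbp and Per2 higher relative to the median gene. Against iWAT 10 of 10 clock genes passed the test (70.1% of all genes). Of these 7 were higher in liver (27.9% of all genes) and 3 lower (42.2%). Against eWAT 8 of 10 passed (70.5% of all genes), with 4 higher (28.2%) and 4 lower (42.3%). Both lower counts include Npas2, which was below the filter in liver alone and entered through the fat libraries; without it they are 2 and 3. These comparisons share the liver libraries. The scale matters here: the median log2 difference of all genes was −0.43 for liver minus iWAT and −0.37 for liver minus eWAT on scaled counts, but −1.14 and −1.08 on the deposited FPKM values. Differences are therefore given on both scales and relative to the median.

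Arntl was at 3.27, 5.67 and 8.94 CPM (lowest, median and highest of 6 libraries) in liver, 12, 16.7 and 22.3 CPM in iWAT and 8.99, 9.85 and 18.2 CPM in eWAT. It was lower in liver by −1.58 ± 0.2 on the log2 scale against iWAT (adjusted p = 5.41e-06) and by −1.01 ± 0.19 against eWAT (adjusted p = 0.000317). Clock was at 11.1, 15 and 23 CPM in liver, 31.8, 39 and 51.9 CPM in iWAT and 38.9, 61.9 and 65.4 CPM in eWAT. It was lower in liver by −1.33 ± 0.22 against iWAT (adjusted p = 6.9e-05) and by −1.81 ± 0.22 against eWAT (adjusted p = 4.35e-06). No liver library reached any fat library for either gene.

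Relative to the median of all genes, Arntl was lower in liver than in iWAT by −1.15 on scaled counts and −0.99 on FPKM, and lower than in eWAT by −0.63 and −0.56. Clock was lower than in iWAT by −0.9 on scaled counts and −0.82 on FPKM, and lower than in eWAT by −1.44 and −1.29. The medians cover 15717 genes on scaled counts and 13096 on FPKM. Arntl and Clock averaged 1.05 and 1.07 FPKM in liver, where the pseudocount of 1 shrinks the FPKM differences. Npas2 was lower in liver by −1.86 ± 0.59 against iWAT (adjusted p = 0.0117) and −2.65 ± 0.6 against eWAT (adjusted p = 0.0013). It rests on 1 to 10 counts per liver library and passed the filter through the fat libraries, so its selection built in a difference.

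Dbp was at 81.2, 101 and 140 CPM in liver, 20, 25 and 34.5 CPM in iWAT and 12.7, 38.6 and 49.7 CPM in eWAT. It was higher in liver by 2.02 ± 0.24 against iWAT (adjusted p = 4.5e-06) and 1.65 ± 0.24 against eWAT (adjusted p = 2.95e-05). Per2 was at 73.7, 98.8 and 108 CPM in liver, 24, 29.8 and 49 CPM in iWAT and 12.4, 36.2 and 42.7 CPM in eWAT. All liver libraries lay above all fat libraries for both genes on this TMM scale. By plain share of the counts they overlapped. Per2 had 681 of 20249956 counts in liver WT replicate 2 and 1724 of 28039742 in iWAT KO replicate 1. Dbp had 981 of 22684855 counts in liver WT replicate 1 and 1316 of 17142650 in eWAT KO replicate 3. Per2 was higher in liver by 1.49 ± 0.26 against iWAT and 1.5 ± 0.26 against eWAT (adjusted p = 0.00014 for both).

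On FPKM values Dbp was higher in liver by 0.69 against iWAT (adjusted p = 0.0116), while its 0.4 against eWAT did not pass (adjusted p = 0.118). Per2 was at 0.15 against iWAT and 0.17 against eWAT on FPKM and passed in neither (adjusted p = 0.512 and 0.464). Relative to the median of all genes both were higher on either scale. Dbp lay above the median by 2.45 against iWAT and 2.02 against eWAT on scaled counts, and by 1.83 and 1.49 on FPKM. Per2 lay above it by 1.92 and 1.88 on scaled counts, and by 1.29 and 1.25 on FPKM.

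For the other members the sign itself depended on the scale. On scaled counts Nr1d1 (0.59), Nr1d2 (0.53), Per1 (0.71), Cry1 (0.55) and Per3 (0.37) were higher in liver than in iWAT, with adjusted p-values from 0.00421 to 0.0495. On FPKM these genes were at −0.73, −0.79, −0.39, −0.74 and −0.71, where Per1 alone did not pass (adjusted p = 0.229). The call of Per3 on scaled counts was lost with no filter on low counts (0.36, adjusted p = 0.0732) and with limma-voom (0.37, adjusted p = 0.0769). It was also lost without iWAT WT replicate 1, iWAT KO replicate 2 or 3, liver WT replicate 1 or 3, or any KO liver (adjusted p up to 0.115). That of Nr1d1 was lost without iWAT WT replicate 1, iWAT KO replicate 3, liver WT replicate 1 or 3, or liver KO replicate 1 or 3 (adjusted p up to 0.0658). With the replicate number as a block both were lost as well (adjusted p = 0.0676 for Nr1d1 and 0.0612 for Per3).

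Against eWAT, Cry1 (0.87, adjusted p = 0.000132) and Per1 (0.61, adjusted p = 0.0231) were higher in liver on scaled counts and at −0.44 and −0.49 on FPKM. The call of Per1 was lost without liver KO replicate 3 (0.47, adjusted p = 0.0752) or liver WT replicate 3 (0.56, adjusted p = 0.052). Nr1d1 and Nr1d2 did not pass on scaled counts (0.37 and 0.17) and were at −0.91 and −1.13 on FPKM. Nr1d1 did pass on scaled counts without eWAT WT replicate 1 (0.58, adjusted p = 0.031). Per3 was lower in liver than in eWAT on both scales, by −0.75 (adjusted p = 0.000698) and −1.67.

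Relative to the median of all genes, these 5 genes lay 0.79 to 1.14 above it in liver against iWAT on scaled counts and 0.35 to 0.75 above it on FPKM. Against eWAT, Cry1, Per1 and Nr1d1 lay above it on both scales, by 1.24, 0.98 and 0.74 on scaled counts and 0.65, 0.59 and 0.17 on FPKM. Per3 lay below it on both (−0.38 and −0.58). Nr1d2 lay above it on scaled counts (0.55) but not on FPKM (−0.04).

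**Figure D4:**
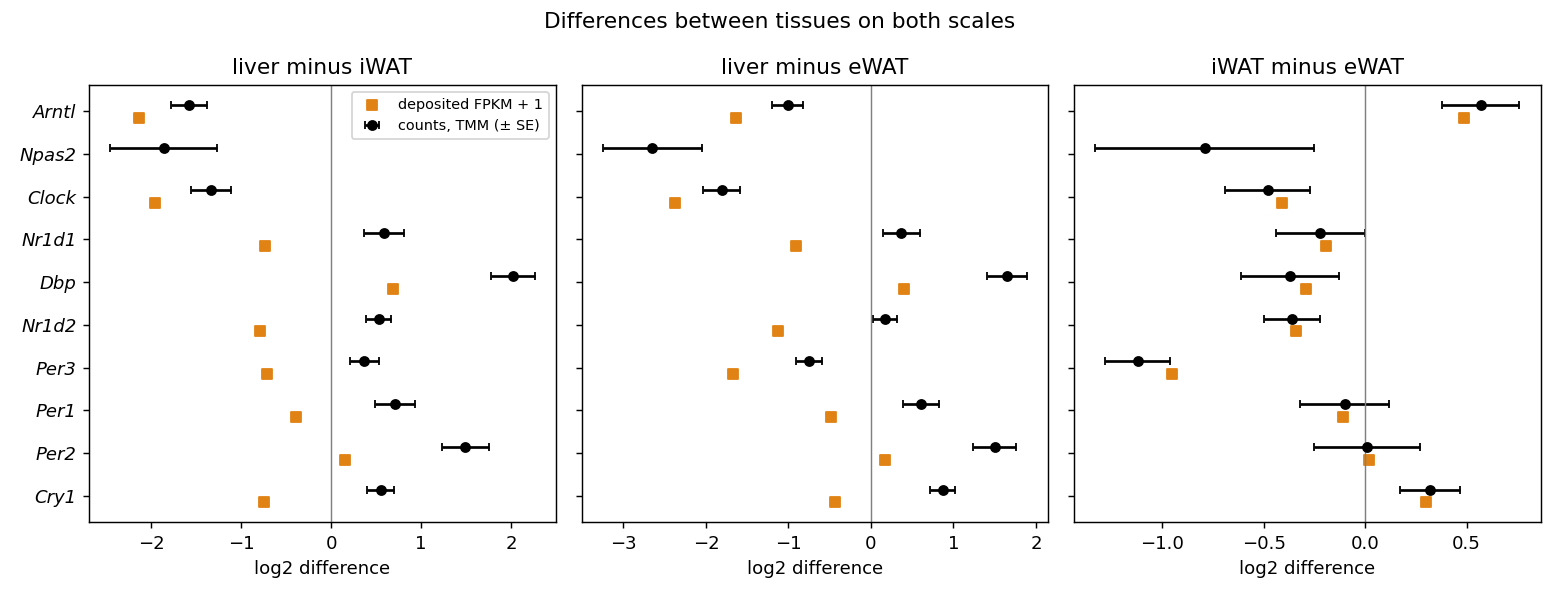
Log2 difference between tissues of the 10 clock genes, averaged over KO and WT, on scaled counts (black, with SE) and on deposited FPKM values with a pseudocount of 1 (orange squares; Npas2 has no FPKM value, being below the minimum mean of 1 FPKM). In both liver panels Arntl and Clock lie left of 0 and Dbp and Per2 right of it on either scale, while the squares of Nr1d1, Nr1d2, Per1 and Cry1 lie left of 0 and their black points right of it.

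The ratio to Arntl within a library gave these contrasts with no scaling between libraries. Dbp stood above Arntl by a mean of 4.2 log2 units in liver, 0.61 in iWAT and 1.48 in eWAT, and Per2 by 4.09, 0.97 and 1.51. Nr1d1 did so by 3.31, 1.14 and 1.9, and Per1 by 3.06, 0.75 and 1.46. Clock, the partner of Arntl, stood above it by 1.49, 1.28 and 2.33, the smallest spread between tissues among the 9 ratios. Npas2 was at −3.92, −3.88 and −2.63.

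Between the depots, 2 of 10 clock genes passed the test for iWAT minus eWAT, as did 25.3% of all genes. Per3 was at 13.2, 15.6 and 22.6 CPM (lowest, median and highest) in iWAT and 22.8, 37.5 and 44.1 CPM in eWAT. Only the lowest eWAT library, WT replicate 2, came near the iWAT values. Per3 was lower in iWAT by −1.12 ± 0.16 (adjusted p = 0.000912), a direction in which 12.2% of all genes passed. The difference was −1.2 without that library, ranged from −1.24 to −0.95 over the alternatives and passed in each.

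Arntl was higher in iWAT by 0.57 ± 0.19 (adjusted p = 0.0389), a direction in which 13.2% of all genes passed, with overlapping libraries. This call was lost when any library was left out other than eWAT WT replicate 3 or iWAT KO replicate 1. Over these 12 fits the value was 0.48 to 0.72 and the adjusted p 0.0122 to 0.0928. It was also lost with median-of-ratios scaling (0.49, adjusted p = 0.0661).

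Other genes of the clock were counted from lists. The first held 15 further regulators, among them Cry2, Bhlhe40, Bhlhe41, Nfil3, Tef, Hlf, Ciart, Timeless, and the kinases and ligases that set the life of Per and Cry. In each tissue 14 were tested and 0 passed in either direction between KO and WT. Their median log2 fold change was 0.05 in eWAT, 0.1 in iWAT and 0.13 in liver. In liver the smallest unadjusted p was that of Nfil3, a repressor at the D-box, at 20.5 ± 3.62 CPM in KO and 44.7 ± 13.8 CPM in WT (SD, n = 3). Its log2 fold change was −1.1 ± 0.24 (adjusted p = 0.425). Bhlhe41, a repressor at the E-box, was at 1.1 ± 0.41 (adjusted p = 0.722). In eWAT, with WT replicate 2 included, Bhlhe40, another repressor at the E-box, was at −0.9 ± 0.35 on the log2 scale (adjusted p = 0.706).

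Between tissues on scaled counts, 6 of the 15 regulators were higher and 5 lower in liver than in iWAT, beside 27.9% and 42.2% of all genes. Against eWAT 5 were higher and 5 lower, beside 28.2% and 42.3% of all genes. Both lower counts include 1 gene at 0 CPM in every liver library, which was tested in no tissue alone and passed the filter through the fat libraries. Ciart, a repressor of the Arntl and Clock pair, was higher in liver than in iWAT by 4 ± 0.26 (adjusted p = 8.85e-09). Hlf, a relative of Dbp, was higher by 2.34 ± 0.23 (adjusted p = 7.05e-07). Csnk1e, which encodes a kinase of the Per proteins, was lower by −2.01 ± 0.14 (adjusted p = 1.76e-08).

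Of 18 output genes with a known daily rhythm, 15 were tested in eWAT, 16 in iWAT and 18 in liver, and 0 passed in either direction between KO and WT. In liver 14 had a log2 fold change above 0 and 4 below, with a median of 0.29 beside −0.0021 over all genes, and 5 were at an unadjusted p under 0.05 (6.04% of all genes). Elovl3, a fatty acid elongase, was at 52.6 ± 16.3 CPM in KO livers and 21.4 ± 7.61 CPM in WT livers (1.32 ± 0.32, adjusted p = 0.485). Cyp7a1, the rate-limiting enzyme of bile acid synthesis, was at 373 ± 73.2 CPM in KO livers and 209 ± 35 CPM in WT livers (0.87 ± 0.21, adjusted p = 0.485). Noct, which encodes the phosphatase nocturnin, was at 214 ± 6.25 CPM in KO livers and 153 ± 12.3 CPM in WT livers (0.51 ± 0.15, adjusted p = 0.558). In iWAT Elovl3 was at −1.86 ± 0.58 (adjusted p = 1). The medians of the output genes were −0.19 in eWAT and −0.1 in iWAT.

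Signals that can set clock genes were counted in the same way. Of 10 genes that respond to glucocorticoids, a list that holds Per1, 0 passed in any tissue. Their medians were 0.67 in eWAT, 0.02 in iWAT and 0.13 in liver, beside −0.02, 0.01 and −0.0021 over all genes. The eWAT median includes WT replicate 2, and the lists were not refitted without it. Cdkn1a, a cell cycle inhibitor, had the smallest unadjusted p of this list in liver (1.28 ± 0.27, adjusted p = 0.357). Of 10 genes that respond to fasting, 0 passed, with medians of 0.53 in eWAT, 0.16 in iWAT and 0.55 in liver. The smallest unadjusted p-values in liver were those of Txnip, an inhibitor of thioredoxin (0.83 ± 0.24, adjusted p = 0.542), and Fgf21, a fasting hormone (1.79 ± 0.54, adjusted p = 0.574).

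Of 8 genes that respond to temperature, 2 rose in KO livers, the heat shock genes Hspa1a and Hspa1b, beside 0.0504% of all genes called. Both calls were lost without liver KO replicate 1, in the fit of 18 libraries and on FPKM without a filter, where 0 genes were called in liver. Hspa1b was at 337 ± 123 CPM in KO livers and 81.2 ± 10.7 CPM in WT livers (SD, n = 3), with a log2 fold change of 2.07 ± 0.26 (adjusted p = 0.0358). Hspa1a was at 11.5 ± 4.29 CPM in KO livers and 1.34 ± 0.15 CPM in WT livers, with a log2 fold change of 3.09 ± 0.34 (adjusted p = 0.0185). Both values are uncertain because these near-identical copies can share reads. The 8 genes had a median of 0.04 in eWAT, 0.57 in iWAT and 0.14 in liver. The part of glucocorticoids, feeding or temperature in the clock gene values was not tested.

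Among the libraries of a group, the median SD of the clock genes was 0.36 log2 units in eWAT (0.55 over all genes), 0.28 in iWAT (0.39) and 0.3 in liver (0.34). The steadiest were Nr1d2 in eWAT (0.15), Cry1 in iWAT (0.13) and Cry1, Per2 and Per3 in liver (0.19 each). The most variable was Npas2, at 0.98 in eWAT, 0.82 in iWAT and 0.79 in liver. After subtracting the mean of each group, Nr1d1 correlated across the 18 libraries with Per2 (Pearson's r = 0.87), Per3 (0.8) and Cry1 (0.77), and Arntl with Per1 (0.65) and Dbp (−0.5). The points share their library and its depth. For Nr1d1, Dbp, Per2, Per3 and Cry1, eWAT WT replicate 2 had the lowest value of its group. By this measure the 8 genes most like Arntl among 9896 genes were Zkscan3 (r = 0.83), Rufy3 (0.8), Secisbp2 (0.77), Arrdc4, Leng8, Rsad1, Xrcc6 and Mdp1. Those most like Dbp were Unc119 (0.84), Npr3 (0.8), Cast (0.78), Rsu1, Sulf2, Prr16, Pter and Cdk5rap1.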

How the data were processed

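Per the labels' protocols, RNA was enriched on oligo(dT) beads, reverse transcribed from random primers, and read by an Illumina NovaSeq. Tools named in the submitters' processing notes include RSEM, HISAT2 and StringTie 1.3.1, with the build mm10 and without the step each was used for. The authors deposited an expected count per gene and library (8.57% of the values were not whole, within a tolerance of 0.01) and an FPKM value, a count scaled by length and depth. Expected counts were rounded and tested over all genes with edgeR 4.0.16 (R 4.3.3). This used TMM scaling, filterByExpr (minimum count 10, minimum total 15), a robust quasi-likelihood fit and Benjamini-Hochberg adjustment at 0.05. Genotype was fitted within each tissue, and tissues in 1 fit of 18 libraries. Printed CPM values use TMM factors over all 18 libraries, and log2 CPM has a prior count of 2. Of 22298 identifiers 22255 matched a symbol. Alternatives used DESeq2 1.42.0, limma 3.58.1, median-of-ratios scaling, no filter, FPKM values (pseudocount 1 or 0.1, minimum mean 1), each library left out, and replicate numbers as a block. SEs are the log2 fold change divided by the root of F. The fits were tested on simulated data. Named genes were the 10 members and, from each list, those past the threshold and up to 4 in order of unadjusted p, of which 1 gene is not reported here. The members, lists and tests were chosen with earlier results of these data known. No pair of libraries of a group held the same values within sampling noise.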

Additional observations from a re-analysis of the deposited data

How the results depend on the processing

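Under every alternative run in eWAT, iWAT and liver, 0 of 443 single KO minus WT values of clock genes passed the threshold. Arntl, Nr1d1 and Dbp kept their sign in the 3 tissues under each alternative. The counts of all genes called moved with the tool: DESeq2 called 126 in eWAT, 67 in iWAT and 65 in liver. In liver, where the count was 6, it was 11 with no filter, 3 with limma-voom, 0 on FPKM without a filter, 0 in a fit of 18 libraries and 0 to 25 as single libraries were left out. In eWAT it was 25 in the 3 libraries with few epididymal transcripts and 4 in the fit of 18 libraries. For the differences of genotype values, DESeq2 called 46 (iWAT minus eWAT), 46 (liver minus eWAT) and 12 (liver minus iWAT), FPKM values gave 3 and 2 for the first and second of these, and leaving out libraries gave 0 to 14, 0 to 6 and 0 to 1. For iWAT minus eWAT, DESeq2 called 4 clock genes (1 to 2 with a library left out), and 2359 genes were called with limma-voom, 2380 on FPKM and 2353 to 4463 with a library left out. The value shared by the tissues, called in 5 genes, was called in 64 (DESeq2), 16 (limma-voom), 13 (FPKM), 1 (without eWAT), 1 (without iWAT), 0 (without liver) and 2 to 9 genes (a library left out). The cause of these moves was not tested.

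Signs changed for values near 0 and, between liver and fat on FPKM, also for values far from it. In eWAT, Clock was at −0.02 with median-of-ratios scaling, with no filter and with DESeq2, and −0.44 in the 3 libraries (−0.17 to 0.18 with a library left out); Nr1d2 was at 0.31 on FPKM, with or without a filter, 0.33 with the smaller pseudocount and 0.02 in the fit of 18 libraries (−0.14 to 0.07), and Cry1 at 0.20 and 0.22 on FPKM, on which the median of all genes was 0.31. In iWAT, Npas2 was at −0.06 with limma-voom (−0.16 to 0.52), Per1 ranged over −0.29 to 0.26, Per2 over −0.19 to 0.46 and Per3 over −0.09 to 0.34. In liver, Clock ranged over −0.16 to 0.46 and Per1 over −0.09 to 0.39. For iWAT minus eWAT, Per2 was at −0.05 with median-of-ratios scaling and DESeq2 (−0.18 to 0.18) and Per1 at −0.27 to 0.04; Nr1d1 in liver minus iWAT genotype values was at −0.37 to 0.01. On FPKM, liver minus eWAT gave −0.91, −1.13, −0.49 and −0.44 for Nr1d1, Nr1d2, Per1 and Cry1, and liver minus iWAT gave −0.73, −0.79, −0.71, −0.39 and −0.74 for Nr1d1, Nr1d2, Per3, Per1 and Cry1. Shared over tissues, Clock and Cry1 were at 0.12 and 0.04 on FPKM, Clock at 0.0068 without iWAT (−0.17 to 0.01), Per3 at −0.01 without eWAT (−0.0034 to 0.15), and Nr1d2 and Cry1 at −0.09 and 0.03 without liver.

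Replicate numbers did not visibly pair KO with WT libraries of a tissue. After subtracting group means, those of the same number correlated by −0.63 to 0.12, over 0.1 in 1 of 9 pairs. Libraries of the same genotype and number in different tissues correlated by −0.21 to 0.23, over 0.1 in 2 of 18 pairs. Correlations between tissues cannot show whether they came from the same animal. With the replicate number as a block, 39 genes were called in liver and 0 clock genes in any tissue, the shared value was called in 22 genes, and Nr1d1 and Per3 in liver minus iWAT were at 0.55 and 0.36 (adjusted p = 0.0676 and 0.0612). Among the liver counts those of Arntl and Npas2 were lowest, with 46 to 99 and 1 to 10 counts per library.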
